A study of Homo sapiens with 27 samples.

Results

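DAB2, LRP2, LRP1, LRPAP1 and NUMB are 5 genes of receptor-mediated endocytosis, and they were followed here in 92.1 uveal melanoma cells kept in a FAK inhibitor or in DMSO for up to 21 days. They are 5 of the 61533 genes in the count table and were found there by their symbols. DAB2 was chosen by its counts in FAKi against DMSO, which were higher with the inhibitor on every day sampled, so its FAKi against DMSO values are a description with no test. The other 4 are its partners and relatives. The rule used no value of theirs, but they were named with earlier results of these data known.

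The 92.1 line is a GNAQ-mutant line from 1 uveal melanoma, and all 27 libraries come from it. Cells were passaged in DMSO or in 100 nM of VS-4718 (FAKi), a small molecule that inhibits focal adhesion kinase, the product of PTK2. DMSO cells were collected on days 0, 3, 7, 14 and 21 and FAKi cells on days 3, 7, 14 and 21, with 3 replicates in each of the 9 groups. The labels do not say whether a replicate number stands for a plate or for a repeat of the whole experiment, so p-values measure the spread between these libraries, which may be technical.

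DAB2 and NUMB are adaptors of clathrin-coated pits. Each carries a phosphotyrosine-binding (PTB) domain, and that of DAB2 binds the peptide motif NPXY (asparagine, proline, any residue, tyrosine) in the tails of receptors of the low-density lipoprotein (LDL) receptor family. LRP2 (megalin) and LRP1 are very large receptors of that family which carry lipoproteins, proteases, vitamin-binding proteins and other ligands into the cell, and LRP2 is best known from the proximal tubule of the kidney. LRPAP1, also called RAP, is the chaperone that keeps both receptors from binding ligands too early in the endoplasmic reticulum. NUMB is also known as an inhibitor of Notch signalling that is shared unequally between daughter cells.

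The sequences that tie these genes together are the codons of the NPXY motifs in the 2 receptor tails. They were read from the counted transcripts of LRP2 and LRP1 in GENCODE v44 on hg38, 5′ to 3′, with the 4 codons of the motif in capitals. Both proteins hold 3 NPXY motifs, of which 2 lie within 200 residues of the C-terminus.
LRP2, first tail motif, chr2:169137425-169137454, minus strand: atatttgaaAACCCAATGTACtcagccaga
LRP2, second tail motif, chr2:169128828-169129039, minus strand, across an intron: aactttgaaAATCCAATCTATgcacagatg
LRP1, first tail motif, chr12:57212166-57212195, plus strand: gagattggaAACCCCACCTACaagatgtac
LRP1, second tail motif, chr12:57212421-57212450, plus strand: aacttcaccAACCCCGTGTATgccacactc
The motifs begin at residues 4523 and 4595 of the 4655 in LRP2 and at residues 4470 and 4504 of the 4544 in LRP1. A phenylalanine stands 2 residues before the motif at both LRP2 sites and at the second LRP1 site, and not at the first LRP1 site.

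On hg38, DAB2 (ENSG00000153071.15) lies at chr5:39371677-39424980 on the minus strand and LRP2 (ENSG00000081479.15) at chr2:169127109-169362534 on the minus strand. LRP1 (ENSG00000123384.14) lies at chr12:57128483-57213361 on the plus strand, LRPAP1 (ENSG00000163956.13) at chr4:3503612-3532422 on the minus strand and NUMB (ENSG00000133961.21) at chr14:73275216-73458546 on the minus strand. Exons of a gene on the other strand cover 1.15% of the counted LRP1 exons, and exons of another gene on the same strand cover 2.74% of those of DAB2 and 6.02% of those of NUMB. Counting by strand is not given in the sources used here, so those reads cannot be assigned with certainty.

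The libraries held 12161994 to 43651551 exon counts, with a median of 24759579. PTK2, whose product the drug inhibits, was measured between 101 and 165 CPM (counts scaled to library size, with TMM factors over all libraries) and did not differ between FAKi and DMSO over the 4 days (log2 difference 0.04 ± 0.07, SE, adjusted p = 0.786). The 7 melanocyte genes checked summed to 9438 to 14951 CPM in every library, although DCT was low at 2.49 to 28.5 CPM, and the lists of other cell types summed to at most 0.625 CPM (immune), 0.885 (endothelial), 2.05 (epithelial) and 10.9 (fibroblast). PTPRC, CD3E, CDH5, EPCAM, KRT5 and DCN had fewer than 20 counts over all 27 libraries together and entered these sums as 0. CD14, PECAM1, VWF, CDH1 and PDGFRA reached 0.446 to 2.05 CPM and COL1A1 stood at 3.13 to 9.90 CPM. Of the kidney proximal tubule list, which summed to 8.97 to 24.2 CPM, SLC22A6 likewise had fewer than 20 counts and entered as 0. SLC34A1 had at most 0.241 CPM. AMN and CUBN, which form a receptor complex that works with LRP2, measured 6.96 to 22.9 and 0.601 to 3.43 CPM. The part of these cell type markers in the results was not tested. Of the 27 libraries, 8 lay closer to a library of another group than to their own replicates over 18758 genes, among them all 3 of DMSO day 3, replicates 1 and 2 of FAKi day 7, replicate 1 of FAKi day 14 and replicate 3 of DMSO day 21. Replicate 3 of DMSO day 21 lay nearest to replicate 3 of DMSO day 3. The name of its count column gives an unclear day, and its day was taken from its title. Mitochondrial genes took 5.49% to 9.75% of the counts on day 21 in DMSO and 10.7% to 11.2% with FAKi, against 16.8% to 26.97% in all other groups except DMSO day 3, whose replicates stood at 18.1%, 9.59% and 8.61%.

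Per kilobase of exon, DAB2 was the most abundant of the 5 genes and LRP2 the least, with no overlap in any group. Group means ran from 18.0 to 88.6 CPM per kb for DAB2, 6.81 to 13.9 for NUMB, 6.18 to 12.9 for LRPAP1, 3.08 to 10.6 for LRP1 and 0.00268 to 0.255 for LRP2. The plot of levels by library shows all values.

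**Figure D1:**
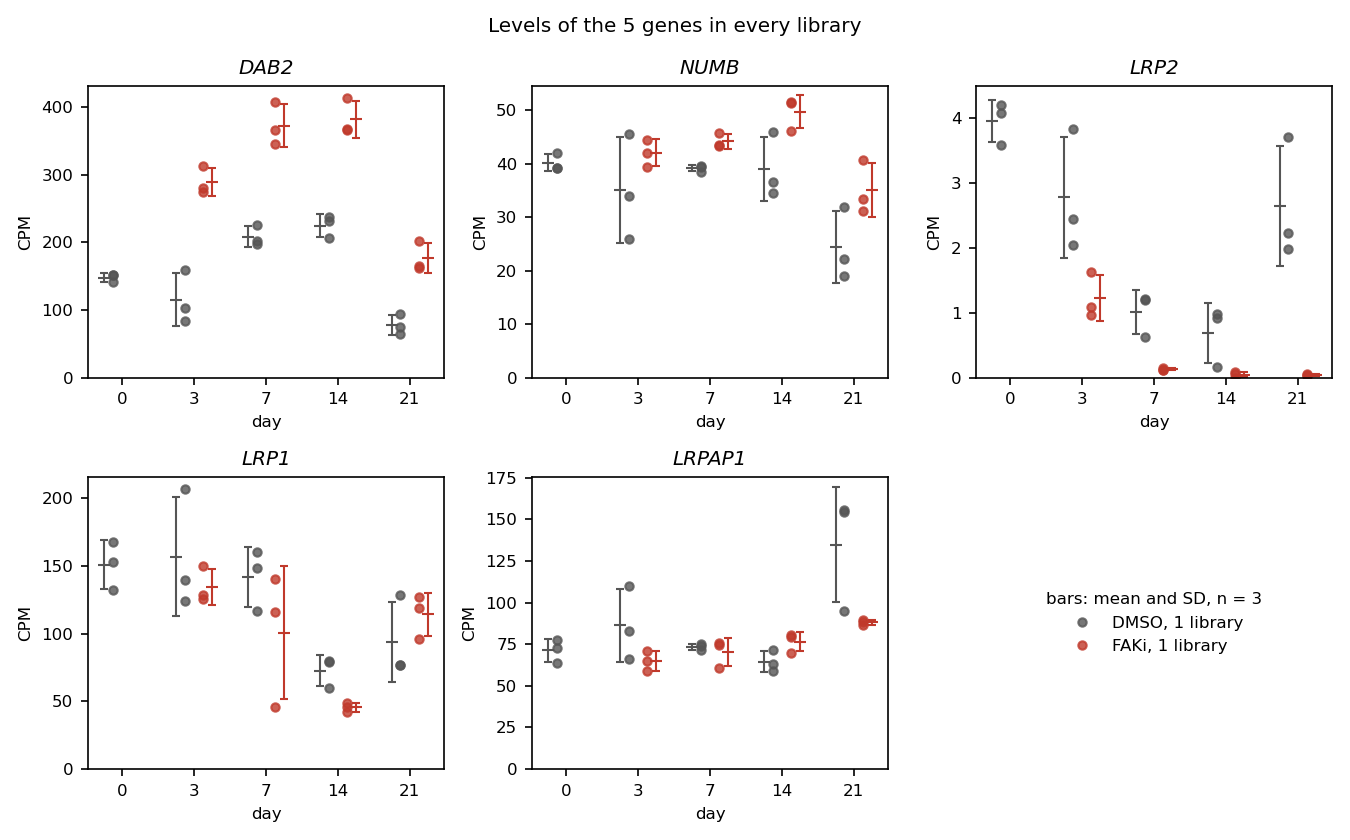
Level of each gene in CPM (linear axis from 0) by day, with 1 point for each library in DMSO (grey) or FAKi (red), and the mean and SD of 3 libraries beside the points. DAB2 was above DMSO in every FAKi library of the same day and LRP2 below it, with LRP2 at most 0.149 CPM in FAKi libraries from day 7 on.

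DAB2 was higher with FAKi on each of the 4 days, which is how it was chosen. DAB2 measured 151, 141 and 152 CPM on day 0. On day 3 it measured 159, 103 and 83.4 CPM in DMSO and 274, 313 and 281 CPM with FAKi. On day 7 the values were 226, 202 and 198 CPM in DMSO and 366, 345 and 408 CPM with FAKi. The DMSO libraries of day 3 were spread widely, with replicate 1 highest, and those of day 7 were close together. On day 14 DAB2 measured 206, 237 and 232 CPM in DMSO and 367, 366 and 414 CPM with FAKi. On day 21 it measured 74.3, 64.9 and 93.6 CPM in DMSO and 163, 165 and 202 CPM with FAKi. The FAKi libraries of day 21 were thus below every FAKi library of the earlier days and within the range of DMSO libraries of other days. The log2 differences (FAKi minus DMSO) were 1.34 ± 0.23 (SE) on day 3, 0.83 ± 0.13 on day 7, 0.76 ± 0.10 on day 14 and 1.23 ± 0.18 on day 21, with 1.04 ± 0.09 as their mean.

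The order of the 9 group means of DAB2 put FAKi day 14 first (382 ± 27.4 CPM, SD, n = 3) and DMSO day 21 last (77.6 ± 14.6 CPM, n = 3). FAKi days 14 and 7 overlapped with each other, and so did DMSO days 14 and 7, DMSO day 7 and FAKi day 21, DMSO days 0 and 3, and DMSO days 3 and 21. Neighbours in that order were separate between FAKi days 7 and 3, between FAKi day 3 and DMSO day 14, and between FAKi day 21 and DMSO day 0.

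NUMB, the other adaptor, was called on no day. A gene was called where its log2 change exceeded 1 in size and its p, from the quasi-likelihood test of edgeR adjusted over all genes tested (Benjamini-Hochberg), did not exceed 0.05. NUMB had log2 differences of 0.27 ± 0.20 (SE, adjusted p = 0.435) on day 3, 0.17 ± 0.12 (0.712) on day 7, 0.35 ± 0.12 (0.0599) on day 14 and 0.57 ± 0.22 (0.113) on day 21. Its mean over the 4 days, 0.33 ± 0.09, had an adjusted p of 0.0153 and stayed under the fold threshold. All 3 FAKi libraries were above all 3 DMSO libraries on day 7 (43.4, 43.3 and 45.8 against 38.5, 39.4 and 39.6 CPM) and on day 14 (51.5, 46.2 and 51.4 against 34.6, 45.8 and 36.5 CPM), and the libraries overlapped on days 3 and 21. Such a separation in either direction was common, at 30.9% of genes tested on day 3, 16.7% on day 7, 28.9% on day 14 and 35.4% on day 21.

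LRP2, the receptor, was lower with FAKi on all 4 days and passed the test on day 21 and for the mean over days. It measured 4.08, 3.59 and 4.20 CPM on day 0. On day 3 it measured 2.45, 3.83 and 2.05 CPM in DMSO and 1.63, 0.963 and 1.09 CPM with FAKi. On day 7 the values were 0.622, 1.20 and 1.22 CPM in DMSO and 0.149, 0.123 and 0.118 CPM with FAKi. LRP2 was low throughout, and these 6 FAKi libraries held 34, 13 and 16 counts on day 3 and 3, 3 and 2 counts on day 7. On day 14 LRP2 measured 0.157, 0.984 and 0.914 CPM in DMSO and 0.0601, 0 and 0.0784 CPM with FAKi. On day 21 it measured 2.23, 1.99 and 3.70 CPM in DMSO and 0.0430, 0.0529 and 0.0287 CPM with FAKi, which is 1 count in each FAKi library against 78, 35 and 80 in DMSO. The library with no count allows up to 0.104 CPM, the level of 3 counts.

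FAKi libraries were below DMSO libraries for LRP2 on every day, and 185 of 21147 genes (0.875%), DAB2 among them, kept their libraries apart in a single direction on all 4 days. As pooled counts, LRP2 was 2.11-fold higher in DMSO than with FAKi on day 3 (95% exact interval 1.60 to 2.83), 7.71-fold on day 7 (3.73 to 18.5), 14.9-fold on day 14 (5.55 to 56.4) and 66.8-fold on day 21 (22.5 to 327). These intervals cover counting error only, not the spread between libraries. Replicate 1 of DMSO day 14 had 5 counts where the other two had 31 and 28, and without it the ratio of day 14 was 20.8.

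The test called LRP2 on day 21 (log2 difference -5.86 ± 0.53, SE, adjusted p = 0.00293), where 5.28% of 23212 genes were called, and for the mean of the 4 days (-3.43 ± 0.32, adjusted p = 9.76e-08), where 1.89% were. On day 3 (-1.13 ± 0.34, adjusted p = 0.113), day 7 (-2.91 ± 0.52, 0.150) and day 14 (-3.79 ± 1.33, 0.0675) it missed the threshold. The background on those days was 0% on day 3, 0.0269% on day 7 and 1.66% on day 14. On day 3 no gene was called by edgeR, although 5442 of 22846 had an unadjusted p under 0.05 and DESeq2 called 745. These calls changed with the setting and with single libraries. With all libraries kept, LRP2 passed by DESeq2 on day 3 (adjusted p = 0.0498) and day 7 (0.0123). It also passed on day 14 in a single edgeR fit of all 27 libraries (0.00131). These settings called 3.26%, 0.466% and 2.24% of all genes. By edgeR LRP2 passed on day 3 without replicate 1 of DMSO (-1.20, adjusted p = 0.0176) and on day 7 without replicate 1 of FAKi (-3.01, 0.0112). On day 14 it passed without replicate 1 of DMSO (-4.26, 0.0296). Those fits called 12.7%, 1.14% and 1.96% of all genes tested, in the same order. Without 2 of the libraries that lay apart, replicate 1 of FAKi day 7 and of DMSO day 3, a choice made after seeing the data, the mean of days was -3.47 (adjusted p = 1.88e-07). On days 7, 14 and 21 LRP2 reached the 20 counts needed for testing through DMSO. It had 79, 64 and 193 counts there, against 8, 4 and 3 with FAKi. In bulk libraries fewer cells with LRP2 RNA and less LRP2 RNA per cell cannot be told apart.

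**Figure D2:**
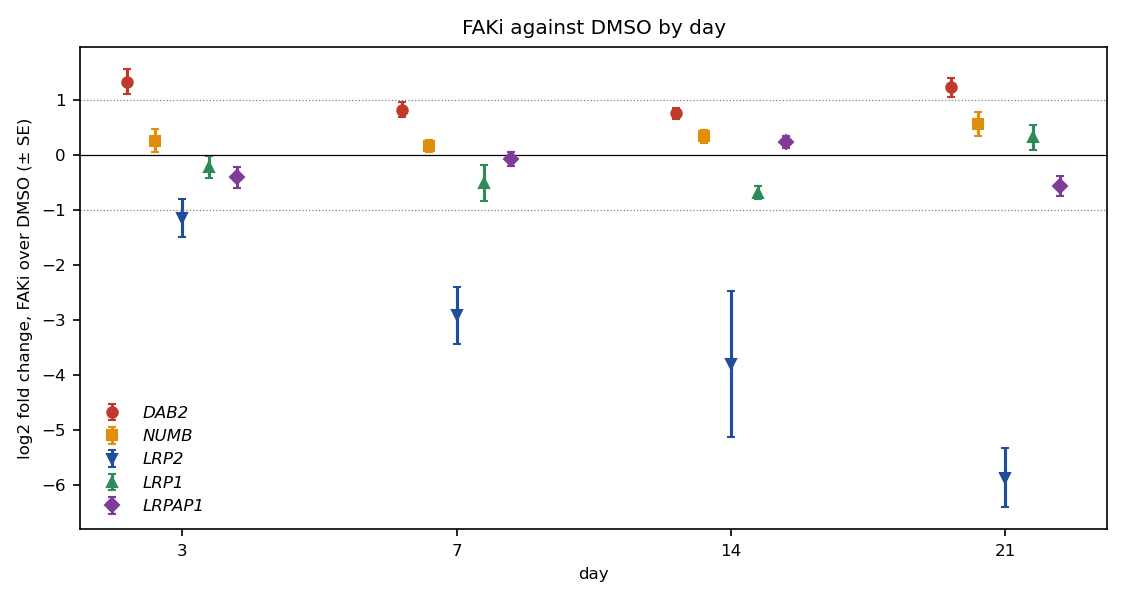
Log2 fold change of each gene, FAKi over DMSO, by day, with the standard error of the fit as bars and dotted lines at the fold threshold of 1 in either direction. LRP2 went from -1.13 on day 3 to -5.86 on day 21, DAB2 stayed between 0.76 and 1.34, and the other 3 genes stayed within 1 of 0.

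The difference between FAKi and DMSO in LRP2 was larger on day 21 than on day 3. The change of the FAKi effect between these days was -4.74 ± 0.68 (log2, SE, adjusted p = 0.00446), in a comparison that called 2.22% of 25389 genes. For DAB2 the same change was -0.13 ± 0.31. NUMB (0.28 ± 0.32, adjusted p = 0.674), LRP1 (0.51 ± 0.33, 0.432) and LRPAP1 (-0.18 ± 0.28, 0.775) were not called.

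LRP1, the other receptor, was called on no day. Its log2 differences (FAKi minus DMSO) were -0.21 ± 0.20 (SE, adjusted p = 0.551) on day 3, -0.50 ± 0.33 (0.704) on day 7, -0.68 ± 0.12 (0.000521) on day 14 and 0.32 ± 0.23 (0.351) on day 21, and none passed the fold threshold. On day 14 LRP1 measured 59.6, 78.9 and 79.6 CPM in DMSO and 45.7, 48.5 and 42.2 CPM with FAKi, with no overlap. On day 21 it measured 77.04, 76.9 and 128 CPM in DMSO and 96.3, 119 and 127 CPM with FAKi, and the libraries overlapped. On day 7 the FAKi libraries held 45.8, 140 and 116 CPM, and without the first of them, which over all genes lay closest to a FAKi library of day 14, the difference of day 7 was -0.16. On day 3 replicate 1 of DMSO stood at 207 CPM beside 140 and 124, and without it the difference changed sign, to 0.05.

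LRPAP1, the chaperone, was between 58.6 and 110 CPM in every library but 2, and these were replicates 1 and 2 of DMSO day 21. On day 21 it measured 155, 154 and 94.9 CPM in DMSO and 89.3, 88.5 and 86.5 CPM with FAKi. The FAKi libraries were close together and below all 3 DMSO libraries, and the log2 difference of -0.56 ± 0.18 (SE) was not called (adjusted p = 0.0795). The differences were -0.40 ± 0.20 (adjusted p = 0.240) on day 3, -0.06 ± 0.13 (0.912) on day 7 and 0.24 ± 0.11 (0.166) on day 14, with a mean of -0.20 ± 0.08 (0.104).

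The DMSO cells changed with time as well, and these changes set the level to which FAKi cells are compared on each day. On day 3 none of the 5 genes was called against day 0, in a comparison with 0% called by edgeR, 2242 genes at an unadjusted p under 0.05 and 24 called by DESeq2. On day 7 LRP2 was lower than on day 0 (log2 difference -1.99 ± 0.24, SE, adjusted p = 7.35e-07), where 0.699% of genes were called. On day 14, with 6.07% called, LRP2 (-2.53 ± 0.47, adjusted p = 0.000973) and LRP1 (-1.05 ± 0.12, 2.15e-05) were lower. LRP1 fell short of the fold threshold without replicate 3 of day 0 (-0.97) or replicate 1 of day 14 (-0.93). DAB2 differed from day 0 by 0.48 ± 0.07 on day 7 (adjusted p = 2.75e-05) and by 0.60 ± 0.09 on day 14 (0.000203), both under the fold threshold.

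On day 21 in DMSO no member passed against day 0, where 23.3% of genes did. LRP2 measured 2.64 ± 0.93 CPM (SD, n = 3), beside 3.96 ± 0.32 CPM on day 0 (log2 difference -0.59 ± 0.28, SE, adjusted p = 0.113). DAB2 (-0.94 ± 0.15, SE, adjusted p = 0.00342), LRP1 (-0.69 ± 0.22, 0.0318) and NUMB (-0.72 ± 0.20, 0.0184) had negative differences and LRPAP1 a positive one (0.91 ± 0.20, 0.00824), all under the fold threshold. Without replicate 3 of DMSO day 21, DAB2 (-1.10) and LRPAP1 (1.11) passed it. Between days 14 and 21 in DMSO, a comparison chosen after seeing the data in which 26.8% of genes were called, DAB2 fell by 1.53 (± 0.17, SE, adjusted p = 0.000199) and LRP2 rose by 1.94 (± 0.61, 0.0287), as did LRPAP1 by 1.06 (± 0.21, 0.00263). The LRP2 call was lost without replicate 1 or 3 of DMSO day 21 (adjusted p = 0.054 and 0.0622), and LRPAP1 fell below the fold threshold without replicate 2 of day 14 or replicate 1 or 2 of day 21 (0.99, 0.97 and 0.95).

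The low mitochondrial shares fell in the same DMSO libraries as low DAB2, low NUMB and high LRPAP1. The 5 DMSO libraries under 10% mitochondrial counts, which were replicates 2 and 3 of day 3 and all 3 of day 21, measured 64.9 to 103 CPM for DAB2 and 82.8 to 155 CPM for LRPAP1, while the other 10 DMSO libraries measured 141 to 237 CPM and 59.1 to 77.5 CPM. NUMB measured 19.0 to 33.9 CPM in those 5 libraries and 34.6 to 45.8 CPM in the other 10, while LRP1 and LRP2 overlapped. Days 3 and 21, to which the 5 belong, had DAB2 log2 differences (FAKi minus DMSO) of 1.34 and 1.23. Those of days 7 and 14 were 0.83 and 0.76. The part of the mitochondrial share in the results was not tested.

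With FAKi, LRP2 was lower on day 21 than on day 3 (-4.78 ± 0.64 on the log2 scale, SE, adjusted p = 3.18e-06). LRP2 reached the total count needed for testing through FAKi day 3, with 63 counts there against 3 on FAKi day 21. In that comparison 22.1% of genes were called. DAB2 (-0.69 ± 0.10, 1.23e-05) and LRPAP1 (0.46 ± 0.10, 0.000523) differed by less than the fold threshold. As pooled counts, LRP2 was 9.87-fold higher on FAKi day 3 than on FAKi day 7 (95% exact interval 4.72 to 23.9) and 33.0-fold higher than on FAKi day 21 (10.8 to 164). LRP2 in DMSO was thus lower on days 7 and 14 than on day 0 and higher on day 21 than on day 14, while with FAKi it stood near 0 counts on day 21.

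Between days 14 and 21 with FAKi, also chosen after seeing the data, DAB2 fell by 1.09 (± 0.10, log2 scale, SE, adjusted p = 2.15e-08) and LRP1 rose by 1.35 (± 0.11, 4.73e-09), where 20.2% of genes were called. LRP2 had too few counts to be tested there. DAB2 was therefore lower on day 21 than on day 14 in both treatments, and the change of its FAKi effect between these days was 0.45 ± 0.20. That change was -2.11 ± 1.40 for LRP2 (adjusted p = 0.351), which was not called. It was 0.99 ± 0.26 for LRP1 (adjusted p = 0.0219) and -0.83 ± 0.23 for LRPAP1 (0.0248), both under the fold threshold. In this comparison 7.43% of genes were called. Without replicate 3 of DMSO day 21 LRP1 and LRPAP1 passed that threshold, at 1.28 and -1.03. LRP1 alone did without replicate 1 of DMSO day 14 (1.11), replicate 2 of FAKi day 14 (1.03) or replicate 1 of FAKi day 21 (1.09). These comparisons share libraries with one another and with those of FAKi against DMSO.

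The 6 lists hold 79 genes beside the 5 members, and of those tested 0 of 77 were called on day 3, 0 of 76 on day 7, 1 of 76 on day 14, 2 of 77 on day 21 and 1 of 78 for the mean of days. Over all genes tested the shares called were 0%, 0.0269%, 1.66%, 5.28% and 1.89%, in the same order, so few calls are not particular to these lists. On day 21, where same-numbered libraries deviated together, 7 were called with the replicate number as a block, a setting that called 8.94% of all genes. Without replicate 3 of DMSO 13 were called, beside 18.7% of all genes. At an unadjusted p under 0.05 stood 23.4% of them on day 3, 11.8% on day 7, 42.1% on day 14 and 38.96% on day 21, against 23.8%, 8.77%, 24.6% and 32.6% of all genes tested. The median log2 difference of the 79 was between -0.09 and 0.06 on the 4 days.

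**Figure D3:**
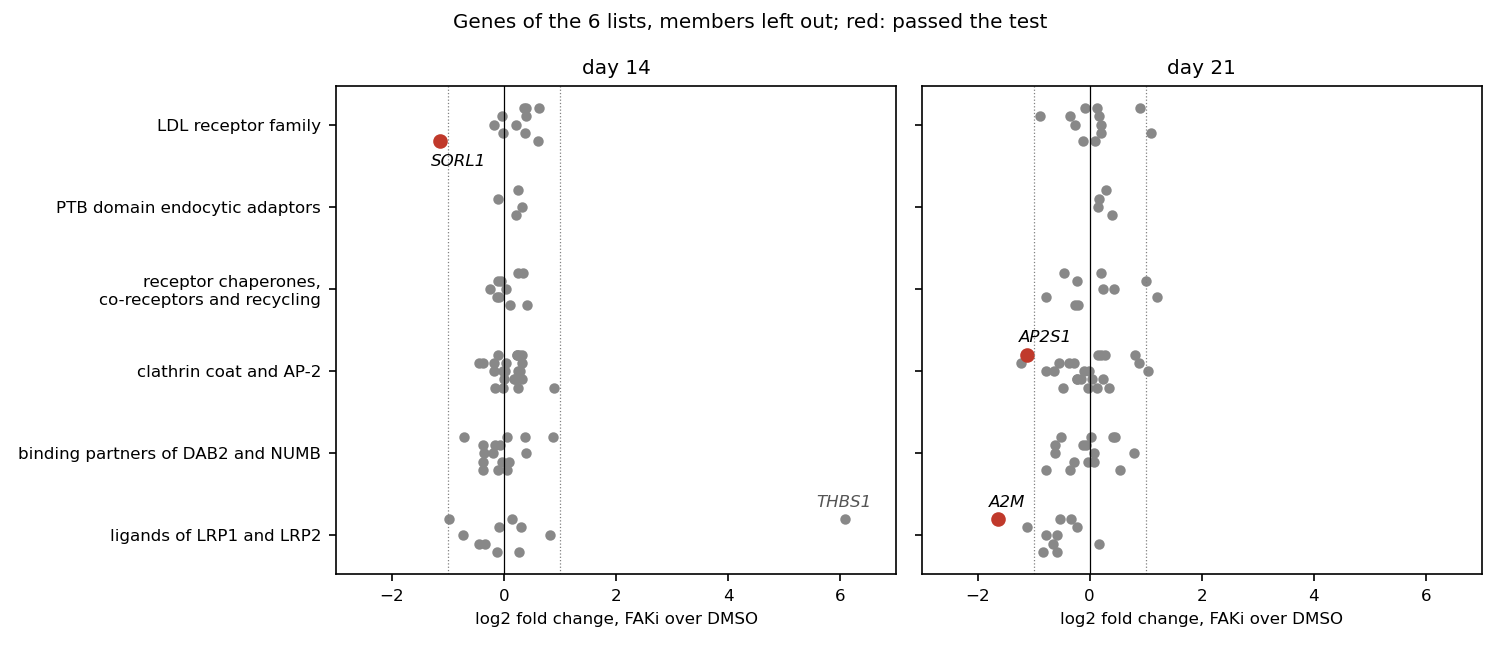
Log2 fold change, FAKi over DMSO, of each gene of the 6 lists (1 point per gene, members left out) on days 14 and 21, with dotted lines at the fold threshold of 1. Genes that passed the test are red, namely SORL1 on day 14 and AP2S1 and A2M on day 21, and the THBS1 point on day 14 rests on 25 counts with FAKi and 0 in DMSO.

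In the LDL receptor family 1 of 11 genes tested on day 14 was called and none of 12 on the other days. SORL1, a sorting receptor of that family, was lower with FAKi on day 14 (2.49 ± 0.94 against 5.51 ± 1.08 CPM, SD, n = 3, log2 difference -1.15 ± 0.30, SE, adjusted p = 0.0133). Without replicate 2 of DMSO (-0.98, adjusted p = 0.0758) or of FAKi (-0.87, 0.0971) it was not called. On day 21 SORL1 measured 2.12 ± 0.22 CPM with FAKi and 2.02 ± 0.58 CPM in DMSO. The family had median log2 differences of 0.13 on day 3, -0.02 on day 7, 0.35 on day 14 and 0.11 on day 21, beside -0.02, 0.01, -0.01 and 0.01 for all genes. At an unadjusted p under 0.05, 0 genes were higher and 1 lower on days 3 and 7, 6 and 1 on day 14, and 2 and 1 on day 21. Of all genes tested, 23.8%, 8.77%, 24.6% and 32.6% were under 0.05 in either direction on days 3, 7, 14 and 21.

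Among the 4 remaining PTB adaptors none was called on any day, and DAB1, the neuronal relative of DAB2, had the smallest p for the mean of days (0.19 ± 0.14, adjusted p = 0.368). Nor was any of the 10 chaperones, co-receptors and recycling factors. Of these, ANKRA2, an ankyrin-repeat protein that binds the tail of LRP2, had a mean log2 difference over days of 0.37 ± 0.08 (SE, adjusted p = 0.00488). It measured 13.7 ± 0.42 CPM with FAKi and 7.07 ± 0.69 CPM in DMSO on day 21 (log2 difference 1.00 ± 0.16, SE, adjusted p = 0.0104), at the fold threshold but not over it. The differences were 0.20 ± 0.18 on day 3, 0.34 ± 0.16 on day 7 and -0.06 ± 0.19 on day 14, and the libraries overlapped on days 3 and 14.

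Of 24 genes of the clathrin coat and its AP-2 adaptor complex 1 was called, on day 21. AP2S1, the small subunit of AP-2, measured 44.6 to 60.8 CPM with FAKi and 64.6 to 147 CPM in DMSO on that day (log2 difference -1.12 ± 0.29, SE, adjusted p = 0.0427). That call was lost without any 1 of the libraries of day 21 except replicate 3 of DMSO (adjusted p from 0.0957 to 0.175). On the other days AP2S1 had group means of 26.6 to 53.5 CPM in DMSO and 30.9 to 33.6 CPM with FAKi. None of the 16 binding partners of DAB2 and NUMB was called, and LNX1, a ubiquitin ligase of NUMB, had a mean log2 difference of -0.33 ± 0.08 (adjusted p = 0.00395). It differed in direction between days, with all FAKi libraries above DMSO on day 3 (19.0 ± 1.67 against 16.4 ± 0.59 CPM, SD, n = 3) and below on day 14 (15.5 ± 1.17 against 25.2 ± 1.81 CPM) and day 21 (13.3 ± 0.54 against 19.6 ± 3.64 CPM), and that difference between days was not tested.

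Of 13 ligands of LRP1 and LRP2, A2M and THBS1 were called. A2M, alpha-2-macroglobulin, a protease inhibitor that LRP1 clears, measured 208 ± 7.96 CPM with FAKi and 671 ± 65.6 CPM in DMSO on day 21 (log2 difference -1.64 ± 0.14, SE, adjusted p = 0.00257), and its libraries did not overlap. Its FAKi libraries were also all below DMSO on days 3 and 7, with differences of -0.30 ± 0.16 (adjusted p = 0.281) and -0.21 ± 0.15 (0.727) that were not called. On day 14 A2M was above DMSO in all 3 FAKi libraries (350 ± 16.4 against 316 ± 11.4 CPM), with a difference of 0.14 ± 0.09 that was not called (adjusted p = 0.368). The mean of days was -0.50 ± 0.07 (adjusted p = 1.07e-05), under the fold threshold. THBS1, thrombospondin 1, was called for the mean of days (adjusted p = 0.00370). DESeq2 gave it a log2 difference of 3.01 but no adjusted p, so it could not be called there. Its counts were very few, at 7, 6, 25 and 10 per group with FAKi and 2, 11, 0 and 0 in DMSO on days 3, 7, 14 and 21. The ligands had median log2 differences of 0.05 on day 3, -0.21 on day 7, -0.09 on day 14 and -0.59 on day 21, beside -0.02, 0.01, -0.01 and 0.01 for all genes.

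**Figure D4:**
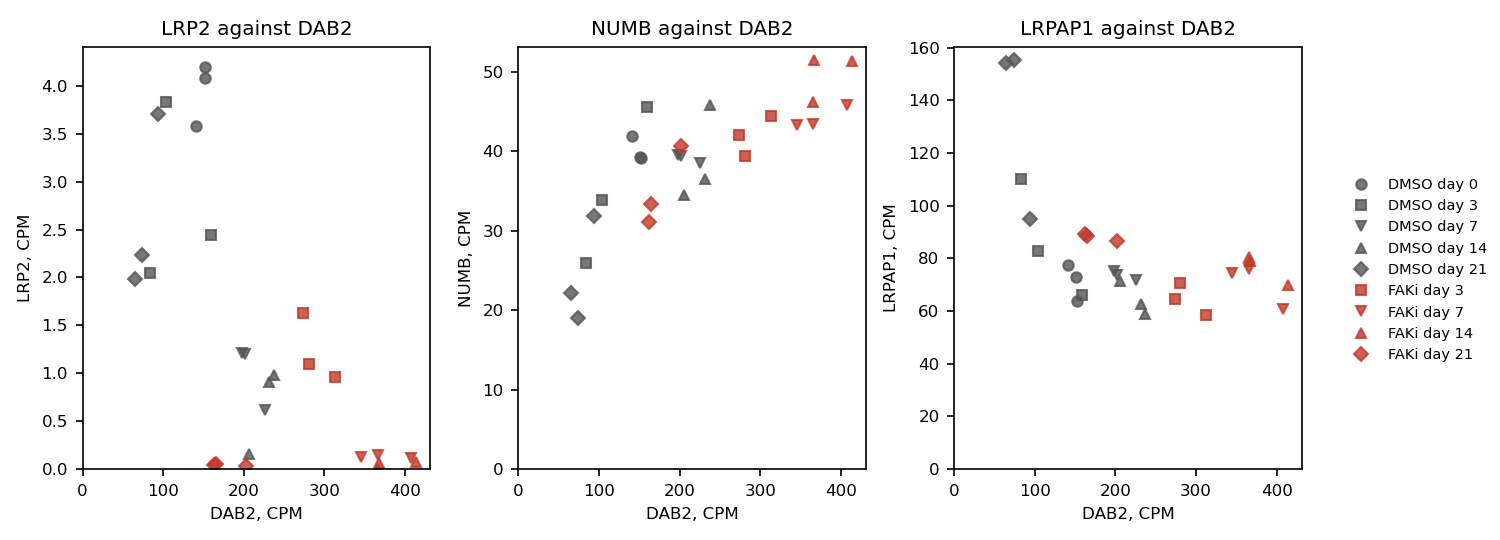
Level of LRP2, NUMB and LRPAP1 (CPM, linear axes from 0) against the level of DAB2 in the same library, with DMSO in grey, FAKi in red and a marker shape for each day. NUMB was higher and LRPAP1 lower in libraries with more DAB2, and LRP2 lay near 0 in the FAKi libraries of days 7, 14 and 21 at any DAB2 level.

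Across libraries of 1 treatment, NUMB varied with DAB2, with r = 0.82 over the 15 DMSO libraries and 0.91 over the 12 FAKi libraries (log2 CPM, Pearson). Without the 2 libraries farthest from the median of DAB2 these were 0.66 and 0.73. LRPAP1 varied against DAB2, with r = -0.89 in DMSO and -0.61 with FAKi, and without the 2 farthest libraries -0.83 and -0.28, so that the value with FAKi rests on those libraries. LRPAP1 and NUMB had r = -0.94 and -0.51, or -0.83 and -0.54 without the 2 libraries farthest in LRPAP1. LRP2 and DAB2 had r = -0.55 in DMSO and 0.08 with FAKi, where LRP2 was close to 0 counts on 3 of 4 days, and -0.66 and -0.29 without the 2 farthest. Libraries of a day share their culture time and their scaling, so these values are descriptions.

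Over all 27 libraries, the 3 of 16981 genes with a mean of at least 1 CPM whose pattern was most like that of DAB2 were SEMA6A (Pearson r = 0.98), NRP2 (0.95) and TACC1 (0.95). SEMA6A is a transmembrane semaphorin and NRP2 a semaphorin co-receptor. The libraries ranked over include the FAKi and DMSO libraries by which DAB2 was chosen. A gene that was also higher with FAKi on every day can rank high for that alone, so this likeness is a description. The most opposite were TMEM132A (-0.94), RRP12 (-0.93) and EPOP (-0.93). For LRP2 the most alike were RIMS4 (0.93), PDGFB (0.92) and CD36 (0.92), the last a scavenger receptor. For LRP1 they were RPS6KA2 (0.97), AKNA (0.95) and ARHGEF2 (0.94), for LRPAP1 RRP7A (0.98), PSMD13 (0.97) and CARD9 (0.96), and for NUMB RAPGEF2 (0.95), KIRREL1 (0.95) and the read-through gene COMMD3-BMI1 (0.94), whose counts may include reads of BMI1.

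The promoters of the 5 genes, as RefSeq gives them on GRCh38.p14 from 250 bases before to 50 after the start, were searched on both strands for 3 motifs that do not overlap one another. The TEAD core GGAATG, bound by the partners of YAP, occurs in 14.0% of 35116 promoters, the AP-1 motif TGANTCA in 7.71% and the M-box CATGTG, bound by MITF, in 11.1%. The DAB2 promoter holds 1 TEAD core, on the strand opposite to the gene, from 11 to 6 bases before the start, and it is shown in capitals within 30 bases at chr5:39424974-39425003, minus strand.
DAB2, TEAD core: aacatcctggcaCATTCCtggggagtcctc
No other match was found in the DAB2 window or in those of LRP2, LRP1, LRPAP1 (with 2 starts) and NUMB, which says only that these letters are not in these windows.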

How the data were processed

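RNA of 92.1 cells was made into stranded mRNA libraries. According to the labels and the study's methods, the authors trimmed reads with Trim Galore, checked them with FastQC 0.11.8, aligned them to hg38 with STAR 2.5.3a and counted exons with HOMER on GENCODE v39 (analyzeRepeats.pl). The deposited values are raw counts per gene, with 1 transcript per gene. The members and gene lists were chosen with earlier results of these data known.

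From these counts, genes with at least 20 counts over the libraries fitted were tested with edgeR 4.0.16 (quasi-likelihood, TMM scaling, Benjamini-Hochberg) in R 4.3.3, separately for each pair of groups. A mean over days or a change between days was a contrast of the groups in 1 fit. SE is the log2 difference over the root of F. CPM used TMM factors of all 27 libraries, and log2 CPM a prior count of 2. Named beside the members were list genes called in a FAKi against DMSO comparison, or else the gene of a list with the smallest p, and the genes most like each member. Scripts were tested on simulated data. Alternatives were RLE and upper quartile scaling, other count filters, 1 fit of all libraries, DESeq2 1.42.0, adjusted p alone, a replicate block and leaving out libraries.

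Same-numbered FAKi and DMSO libraries deviated together on day 21 only, with correlations of 0.13 to 0.66 over 3 pairs.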

Additional observations from a re-analysis of the deposited data

Results flagged for a closer look

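The FAKi effect on LRP2 differed between days 3 and 21 by a test of the difference itself. The log2 difference between FAKi and DMSO changed by -4.74 ± 0.68 (SE, adjusted p = 0.00446, edgeR's quasi-likelihood test) from day 3 to day 21, and leaving out 1 library at a time gave -5.00 to -4.39. It rests on 13 to 34 counts a library with FAKi on day 3 and 1 count a library on day 21. From day 14 to day 21 the log2 difference changed by -2.11 ± 1.40 (adjusted p = 0.351), which was not called.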

How the results depend on the processing

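Depth limits LRP2, which had 0 to 3 counts in each FAKi library from day 7 on, so its fold changes there are known only within wide counting intervals. Its calls on days 3, 7 and 14 changed with single libraries and with the settings. Below, members called leaves out DAB2 in comparisons of FAKi with DMSO. With at least 10 counts in every library LRP2 was not tested, and members called went from 1 to 0 on day 21, for the mean of days, for the change from day 3 to day 21 and for FAKi day 21 against day 3, and from 2 to 1 for DMSO day 14 against day 0. With DESeq2 or no count filter, members called went from 0 to 1 on days 3 and 7. DESeq2 called 3.26% and 0.466% of all genes on these days, and the fit with no count filter 1.73% and 0.306%. With a single fit of all 27 libraries, members called went from 0 to 1 on days 7 and 14. That fit called 0.245% and 2.24% of all genes. LRP2 on day 14 then had an adjusted p of 0.00131. Upper quartile scaling added 1 member (LRP1) to the change from day 14 to day 21, where 7.45% of all genes were called. With adjusted p alone, members called were 1 on day 14, 2 for the mean of days, 2 for DMSO day 7 and 4 for DMSO day 21 against day 0, 3 for FAKi day 21 against day 3 and 2 for the change from day 14 to day 21. The shares of all genes called in that setting were 12.4%, 15.7%, 4.94%, 44.9%, 54.7% and 12.7%, in the same order.

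Leaving out 1 library at a time, members called ranged from 0 to 1 on each of days 3, 7 and 14, from 1 to 2 for DMSO day 14 and from 0 to 2 for DMSO day 21 against day 0, from 0 to 2 for the change from day 14 to day 21 and from 1 to 3 for DMSO day 21 against day 14. List genes called ranged from 0 to 4 on day 3, from 1 to 2 on day 14 and from 1 to 13 on day 21. Without 1 library, the share of all genes called ranged from 0% to 1.14% on day 7 and from 1.20% to 1.96% on day 14. Against DMSO day 0 it ranged from 4.70% to 8.12% on DMSO day 14 and from 16.1% to 36.9% on day 21. For the change from day 14 to day 21 it ranged from 4.47% to 14.9%. For DMSO day 21 against day 14 it ranged from 21.3% to 32.8%. For list genes on day 14, where 1 was called, the count was 17 with adjusted p alone and 2 with upper quartile scaling or all libraries in a single fit. On day 21, with 2 called, it was 12 with adjusted p alone, 5 with upper quartile scaling, 4 with no count filter, 5 with at least 10 counts in every library, 7 with a single fit of all libraries and 5 with DESeq2. For the mean of days, with 1 called, it was 23 with adjusted p alone and 0 both with DESeq2 and with at least 10 counts in every library. Of all genes, these settings called, in the same order, 12.4%, 1.71% and 2.24% on day 14. On day 21 they called 11.6%, 5.20%, 2.69%, 5.87%, 6.94% and 7.90%. For the mean of days they called 15.7%, 2.04% and 0.518%.

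Log2 differences near 0 changed sign when 1 library was left out. Over those fits LRP1 on day 3 ranged from -0.36 to 0.054, LRPAP1 on day 7 from -0.12 to 0.035 and the DAB2 change from day 3 to day 21 from -0.42 to 0.087. Against DMSO day 0, LRP1 ranged from -0.22 to 0.18 on day 3 and from -0.20 to 0.020 on day 7, LRPAP1 from -0.046 to 0.096 on day 7 and NUMB from -0.17 to 0.040 on day 14. The replicate block changed no call of a member, and moved the list genes called on day 21 from 2 to 7. It moved the share of all genes called on that day from 5.28% to 8.94%. Apart from the stricter count filter, under which LRP2 was not tested, the cause of these changes was not tested. Of all genes tested, the share called on day 21 ranged from 2.69% to 11.6% over the settings and from 0.229% to 18.7% without 1 library, and on day 3 from 0% to 3.26% and from 0% to 12.7%.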
